A study of Sus scrofa with 24 samples.

Results

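The comparison described here sets 4 pigs fed an atherogenic diet with a grape extract (AD-GE) against 4 pigs fed the same diet without it (AD). These are 8 of the 24 arrays of the study, and all 24 entered the model. Expression was measured by Affymetrix porcine array in peripheral blood mononuclear cells, the fraction of blood left after a density gradient, which holds lymphocytes and monocytes and few granulocytes. Each group had 2 females (animals 1 and 2) and 2 males (animals 3 and 4), and every diet was given for 4 months. Both groups ate a feed whose added fat was beef tallow at 5.5% and coconut oil at 10%, with cholic acid, a bile acid that raises the uptake of dietary cholesterol, at 1%. The AD-GE animals also received 1 g of grape extract per 70 kg of body weight. Further groups used below are the atherogenic diet with an extract enriched in resveratrol (AD-GE-RES, 1 g of grape extract carrying 18 mg of resveratrol per 70 kg), the atherogenic diet with resveratrol alone (AD-RES, 18 mg per 70 kg), standard chow with the enriched extract (CT-GE-RES) and standard chow alone (CT). The labels name each animal separately, so the p-values measure the spread between pigs. The comparison asked how grape extract altered expression in blood cells of animals on the fat-rich feed.

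Monocytes carry Toll-like receptors, which recognise microbial molecules and through the adaptor MYD88 switch on inflammatory genes. Viral RNA sensors and type I interferon, acting through the JAK and STAT proteins, switch on a wide set of antiviral genes that nearly every blood cell can express. Fat-rich diets and plant polyphenols, the class of compounds that grape extracts are rich in, are known for acting on inflammatory, antioxidant and cholesterol transport genes in such cells.

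In AD-GE animals the genes of the interferon response, Toll-like receptors with their signalling, and monocyte markers stood mostly below their AD levels. Their median log2 differences were −0.42, −0.19 and −0.49, and the Toll-like receptors and their partners alone had −0.39. Single genes differed more: IFIT2 was lower in AD-GE by 1.39, TLR2 by 1.11 and SOD2 by 0.91, and ABCA1 was higher by 1.01. No gene passed the test. limma called 0 of 17999 probe sets (0%) at an adjusted p under 0.05, and the smallest adjusted p was 0.458. At an unadjusted p under 0.05, 503 probe sets were higher in AD-GE (2.79%) and 594 lower (3.3%). The difference was above 0 in 51.4% of all probe sets and below 0 in 48.6%, and the groups did not overlap in 1.73% that were higher and 2.99% that were lower. Without the female AD-GE 2 the counts at an unadjusted p under 0.05 were 323 higher and 368 lower, and without the male AD 3 the count of higher ones was 324. When limma weighted the arrays by their quality it called 1 probe set, which has no gene name and was higher by 0.90 (adjusted p 0.0294). Every difference from AD below is therefore a measured value that did not pass the test.

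The precision of the data sets what could have been seen. The median SE of a difference was 0.154, and in 92.8% of cases its 95% interval held no change larger than 2-fold either way. Array medians ran from 38.6 to 41.2 intensity units over the 24 arrays. The 3'/5' ratio of control transcripts, a log2 measure of RNA integrity that grows as RNA is shortened, averaged 2.46 ± 0.82 in AD-GE and 2.19 ± 0.87 in AD (SD, n = 4 each). That difference of 0.27 had an exact permutation p of 0.514, where 4 against 4 animals can give no less than 0.0286. With the ratio as a covariate limma again called 0 probe sets, and the median of the interferon list was −0.41.

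Among the 6033 genes with a name, each read from its brightest probe set, the AD-GE level was below the AD level in 3295 (54.6%) and above it in 2738 (45.4%), with a median of −0.02. The 4 AD-GE animals lay wholly below the 4 AD animals for 254 genes (4.21%) and wholly above them for 83 (1.38%). The imbalance was larger among probe sets with a name. Of the 8540 probe sets with 1 gene symbol, 3.61% were lower and 1.33% higher without overlap, whereas among the 9459 others the shares were 2.43% and 2.08%. The named genes were also brighter, with a median log2 level of 6.81, against 5.94 for the others.

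Of the genes lower in AD-GE without overlap and by at least 0.5, 81 genes in all, the 12 with the smallest p were CEBPD, RAB18, SOD2, CHMP5, ACSL1, PLSCR1, RAB1A, FKBP5, LMNB1, ACVR1B, ATP6AP2 and ACSL4. Their differences corresponded to 1.42-fold to 1.88-fold, with adjusted p-values of 0.520 to 0.649. SOD2, the manganese superoxide dismutase of mitochondria, stood at 9.78, 10.07, 10.32 and 10.48 in AD-GE animals 1 to 4, against 11.31, 11.10, 10.86 and 11.04 in AD animals 1 to 4. All 4 AD-GE animals lay below the lowest AD animal, and the females differed more than the males (−0.91, SE 0.20). CEBPD, a transcription factor of the acute-phase and macrophage response, stood at 10.00, 10.01, 10.26 and 10.17 in AD-GE and at 11.01, 11.09, 10.76 and 10.76 in AD. The gap between the groups was wider than the spread within either (−0.79, SE 0.17), and of 2 further probe sets of CEBPD 1 differed by −0.84 with overlap and 1 by −0.51 without. ACSL1, which attaches coenzyme A to long-chain fatty acids, was tight in AD-GE at 7.71, 7.66, 7.69 and 7.81, against 8.73, 8.31, 8.06 and 8.75 in AD. ACSL4, the family member that prefers arachidonic acid, differed by −0.51 (SE 0.14).

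PLSCR1, a membrane scramblase that interferon induces, stood at 5.43, 5.31, 5.54 and 5.85 in AD-GE, against 6.21, 5.93, 6.88 and 6.74 in AD. Here the males differed more, by −1.12, than the females, by −0.70. CHMP5, a subunit of the ESCRT-III complex that sorts cargo into endosomes, stood at 7.83, 7.90, 7.90 and 8.25 in AD-GE, against 8.56, 8.82, 8.59 and 8.57 in AD. RAB18, a small GTPase of the endoplasmic reticulum and lipid droplets, stood at 9.13, 9.07, 8.84 and 9.01 in AD-GE, against 9.41, 9.57, 9.54 and 9.64 in AD. RAB1A, the GTPase of transport between the endoplasmic reticulum and the Golgi, differed by −0.64 on this probe set, by −0.56 on its brightest one and by 0.10 on a dim one. ATP6AP2, an accessory part of the proton pump that acidifies these compartments, differed by −0.58, LMNB1, a protein of the nuclear lamina, by −0.61, and ACVR1B, an activin receptor, by −0.76. The FKBP5 probe set among the 12 is the dimmer of a pair and is taken up with the glucocorticoid genes.

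**Figure D1:**
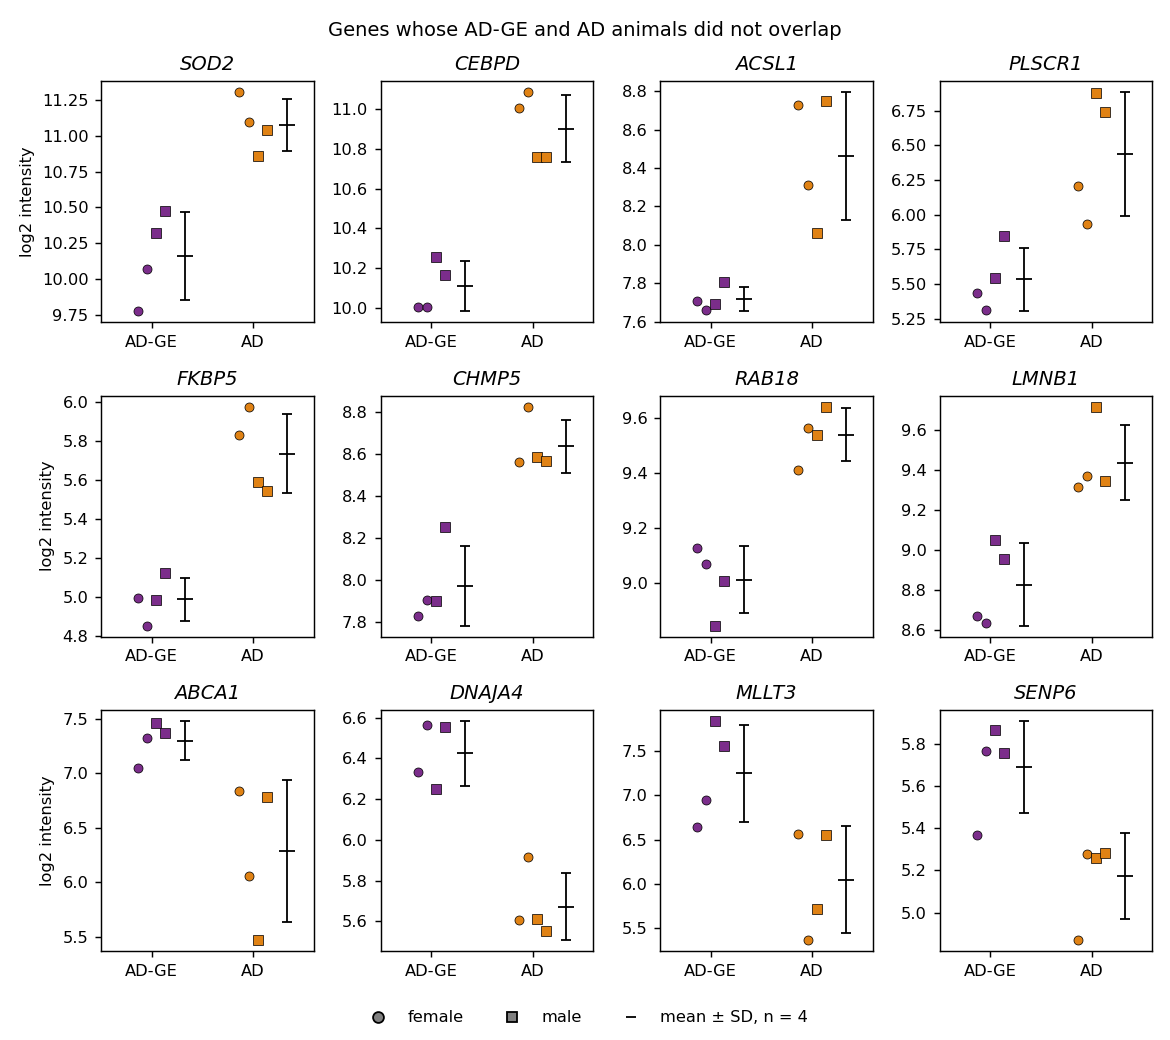
Log2 intensity of 12 genes in each animal, AD-GE left and AD right in each panel, with circles for females, squares for males and bars for the mean ± SD (n = 4). In the first 8 panels every AD-GE animal lies below every AD animal, as for SOD2 (9.78 to 10.48 against 10.86 to 11.31), and in the last 4 panels every AD-GE animal lies above every AD animal.

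In the opposite direction 14 genes met the same conditions, and the 12 named were DNAJA4, C9H11orf57, TMEM68, SENP6, MLLT3, ABCA1, PFN2, ERC1, ANGPT2, APPL2, ARPC2 and TAF1D, higher in AD-GE by 1.43-fold to 2.31-fold (adjusted p 0.520 to 0.804). DNAJA4, a co-chaperone of HSP70 proteins that is known as a target of the sterol regulator SREBP, stood at 6.33, 6.56, 6.25 and 6.55 in AD-GE, against 5.61, 5.92, 5.61 and 5.55 in AD. ABCA1, the pump that loads cell cholesterol onto apolipoprotein A-I, stood at 7.04, 7.32, 7.46 and 7.37 in AD-GE, against 6.84, 6.06, 5.47 and 6.78 in AD. The AD animals spread over more than a 2-fold range and the AD-GE animals did not (1.01, SE 0.31), and without AD 3 the difference was 0.74. MLLT3, a chromatin reader of the super elongation complex, had the largest value of the 12, with 6.64, 6.95, 7.84 and 7.56 in AD-GE, against 6.56, 5.36, 5.71 and 6.55 in AD. The lowest AD-GE and highest AD animal were only just apart. The cytoskeletal genes PFN2, a profilin, and ARPC2, a subunit of the ARP2/3 complex, differed by 0.55 and 0.51.

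Several of these higher values rested on a dim probe set while a brighter one of the same gene differed less. MLLT3 differed by 0.30 on its brighter probe set, TAF1D by 0.21 instead of 0.97, TMEM68 by −0.04 instead of 0.57, and SENP6 by 0.03 on the brightest of 4, though by 0.52 with overlap and 1.15 without on the other two. For DNAJA4 the second, dimmer probe set differed by −0.13. Over the 1786 genes with several probe sets the brightest pair had the same sign in 1099, or 61.5%. Of the 24 probe sets with the smallest p in the whole table, 17 were lower and 7 higher in AD-GE, and 11 had no single gene name.

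**Figure D2:**
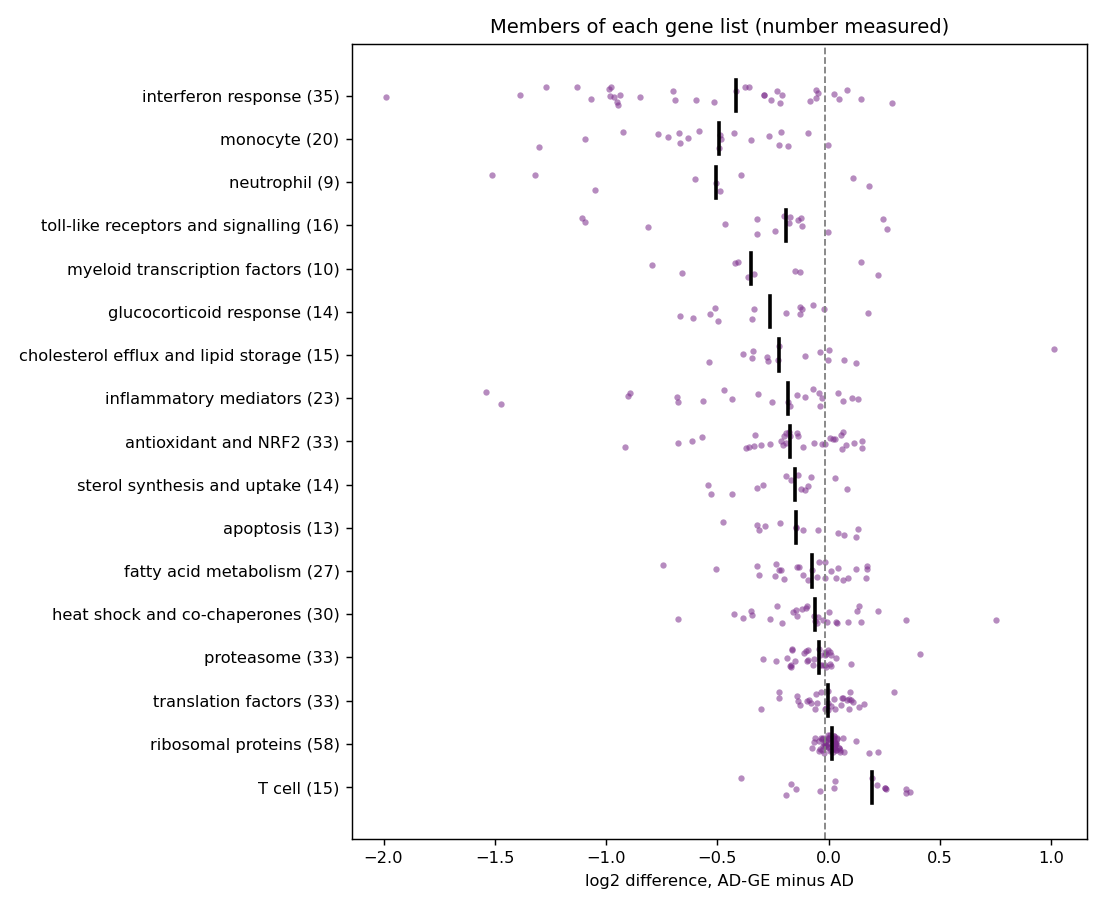
Log2 difference (AD-GE minus AD) of each measured member of 17 gene lists, 1 point a gene, with a bar at the median of the list and a dashed line at the median of all 6033 genes (−0.02). The interferon, inflammatory and neutrophil lists reach farthest to the left (−1.99, −1.54 and −1.51), and the ribosomal proteins lie between −0.07 and 0.22.

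The interferon response gave the longest series of lower genes. Of 35 members measured, 30 stood lower in AD-GE, with a median of −0.42, beside −0.02 over all genes. At an unadjusted p under 0.05, 14 were lower and 0 higher, where 4.72% of all genes were lower and 1.81% higher. The 4 AD-GE animals lay below all AD animals in 7 members, as they did for 4.21% of all genes. This list, like the others, was chosen with earlier results of these data known, so its counts are given as description only. The level of the list, taken as the mean of its members with the mean of all 24 arrays at 0, was −0.44, −0.66, −0.36 and −0.0047 in AD-GE animals 1 to 4, and 0.019, 0.12, 0.23 and 0.38 in AD animals 1 to 4. The groups did not overlap, but AD-GE 4 came close to AD 1.

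The antiviral effectors, proteins that block viral RNA, entry or assembly, stood lower in 12 of 15 cases (median −0.95). IFIT2, which binds viral RNA, stood at 7.46, 7.48, 7.92 and 8.38 in AD-GE, against 9.08, 8.74, 9.24 and 9.72 in AD, and the highest AD-GE animal was below the lowest AD animal. A second probe set of IFIT2 was lower by 1.30 without overlap, and another, dim one by 0.04. MX1, a GTPase that traps viral nucleocapsids, stood at 9.06, 8.36, 9.21 and 9.98 in AD-GE, against 10.02, 10.06, 10.30 and 10.51 in AD. OAS1, the enzyme that makes the activator of RNase L, had the largest difference of the list (−1.99, SE 0.95) with overlap, at 5.19, 3.30, 5.27 and 6.81 in AD-GE, against 5.99, 6.83, 7.52 and 8.19 in AD. AD-GE 2 was the lowest animal and AD 4 the highest. IFIT3 differed by −1.27 and the exonuclease ISG20 by −0.85, both without overlap, whereas RSAD2, which makes a chain terminator of viral RNA synthesis, differed by −0.95 with overlap. ISG15, a ubiquitin-like modifier, differed by −0.95, IFIT1 by −0.94 and MX2 by −0.99, all with overlap. SAMHD1, which depletes nucleotides, went the other way by 0.14 (0.083 without AD 2 and 0.26 without AD 3).

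The 3 measured sensors were all lower, at a median of −0.98. ZBP1, a receptor for left-handed nucleic acid that triggers cell death, stood at 5.07, 5.06, 5.05 and 5.90 in AD-GE, against 6.39, 6.39, 5.95 and 6.87 in AD, so that AD-GE 4 only just stayed below AD 3. DDX58, the gene of the RNA sensor RIG-I, stood at 5.27, 5.01, 5.61 and 6.03 in AD-GE, against 5.84, 6.84, 6.65 and 6.53 in AD, with overlap through AD 1. EIF2AK2, the kinase that halts translation on double-stranded RNA, differed by −0.36. Among receptors and transcription factors 9 of 10 were lower, at a median of −0.26, led by IFNGR1, a chain of the type II interferon receptor, at −0.70 and IRF7, the factor that amplifies type I interferon production, at −0.69 without overlap. IFNAR1, a chain of the type I receptor, differed by −0.52. The feedback genes USP18 and SOCS1 differed by −0.59 and −0.42 with overlap, SOCS1 by only −0.23 without AD-GE 2, and SOCS3 by −0.26 without.

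In the Toll-like receptor list 14 of 16 members stood lower (median −0.19). The receptors and their partners were lower in 8 of 8, at a median of −0.39, and 3 of these were without overlap, beside 4.21% of all genes. TLR2, the receptor for bacterial lipoproteins, stood at 7.67, 7.96, 7.89 and 8.38 in AD-GE, against 9.21, 9.10, 8.68 and 9.35 in AD (−1.11, SE 0.33, adjusted p 0.683). TLR4, the receptor for endotoxin, stood at 8.22, 7.91, 7.70 and 8.14 in AD-GE, against 8.89, 9.16, 8.46 and 8.71 in AD. The groups did not overlap for either receptor, and 4 of the 5 probe sets of TLR4 were lower. LY96, the MD-2 protein that holds endotoxin for TLR4, differed by −0.47 without overlap. CD14, which passes endotoxin to that pair, differed by −1.10 but scattered widely, at 5.13, 4.82, 5.98 and 6.69 in AD-GE, against 5.57, 8.16, 7.64 and 5.63 in AD. Without AD 2 its difference was −0.54, and its second probe set differed by −0.12. Downstream of the receptors the differences were small and of both signs, with MYD88 at −0.24 (−0.15 without AD 3), NFKBIA, the inhibitor of NF-kB, at −0.12, MAP3K7 at 0.26 and the kinase IRAK1 at 0.24. IRAK1 was higher in all 4 AD-GE animals (9.67 to 9.81) than in any AD animal (9.27 to 9.57).

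Markers of monocytes stood lower beside these genes. All 20 that were measured had a lower mean in AD-GE, by between −1.30 and −0.0033, with a median of −0.49, and 5 were without overlap, beside 4.21% of all genes. The level of the list ran from −0.56 to −0.084 in AD-GE and from 0.13 to 0.41 in AD. TYROBP, the signalling adaptor of myeloid receptors, stood at 11.69, 11.62, 11.83 and 11.97 in AD-GE, against 12.41, 12.27, 12.06 and 12.34 in AD. AIF1, an actin-binding protein of macrophages, differed by −0.63, SIRPA, the receptor for the signal CD47, by −0.58, CCR1 by −0.72 (−0.42 without AD-GE 2) and CCR2, the receptor that draws monocytes into the vessel wall, by −0.35, each without overlap. S100A9, a subunit of calprotectin, had the largest value of the list at −1.30 with overlap, and its partner S100A8 differed by −0.77 (−0.47 without AD 1). Of the defining markers CD14 had a mean log2 level of 6.05 over the 24 arrays and ITGAM, the CD11b integrin, only 3.58, close to the filter limit of 3.57. In such a mixed sample, fewer cells of a type and less RNA per cell cannot be told apart. With the level of these 20 markers as a covariate the median of the interferon list was −0.17, of the Toll-like receptor list −0.077 and of the monocyte list itself −0.041; IFIT2 was then at −0.68, TLR2 at −0.53, SOD2 at −0.57, CEBPD at −0.51 and ABCA1 at 1.20. Other genes were much closer to 0 under it, with ISG15 at −0.020, LY96 at −0.061, IRF7 at −0.17, IFIT1 at −0.21, MX1 at −0.29, TLR4 at −0.30, OAS1 at −0.42 and IFIT3 at −0.45. The part of monocyte content in any of these differences was not tested.

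Markers of other blood cells were less uniform. Of 9 measured neutrophil genes 7 stood lower, with a median of −0.51, and the level of the list ran from −0.61 to 0.33 in AD-GE and from −0.21 to 1.06 in AD. LTF, the iron-binding lactoferrin, stood at 8.05, 5.45, 5.63 and 5.75 in AD-GE, against 9.28, 7.60, 6.17 and 7.87 in AD. Replicate 1 was the highest animal of both groups, and without AD 1 the LTF difference was −0.93. The median of the list was −0.80 without AD-GE 1. CHI3L1 differed by −1.05 and NPG4, a protegrin whose probe sets may also read its close relatives, by −1.32 (−0.70 without AD 1). Of 15 T cell genes 10 stood higher, at a median of 0.19, which became −0.04 without AD 4. In females 9 of the 15 were lower (median −0.15), and in males 2 (median 0.20). At an unadjusted limma p under 0.05, 1 was lower and 0 higher, beside 4.72% and 1.81% of all genes. The lowest was CTLA4 at −0.40 (−0.51 in females and −0.28 in males), or −0.23 without AD-GE 1. LCK, the kinase that starts T cell receptor signalling, stood at 10.72, 10.68, 10.57 and 10.56 in AD-GE, against 10.44, 10.10, 10.37 and 10.24 in AD, and LEF1, a transcription factor of naive T cells, at 11.07, 11.01, 10.98 and 11.02 in AD-GE, against 10.63, 10.72, 10.82 and 10.91 in AD. Neither pair of groups overlapped, where 1.38% of all genes were higher without overlap. With the monocyte covariate LCK differed by 0.089 and LEF1 by 0.080. IL7R, the survival receptor of naive and memory T cells, differed by 0.36 with overlap, or by 0.60 without AD-GE 1, 0.24 without AD-GE 3 and 0.23 without AD 1. The platelet genes were lower in 10 of 12, at a median of −0.22 that turned to 0.12 without AD 2, and 5 of 8 red cell genes were higher, at 0.30, which was 0.0033 without AD 3. The medians of the 6 cytotoxic and 5 B cell genes were −0.05 and 0.04.

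**Figure D3:**
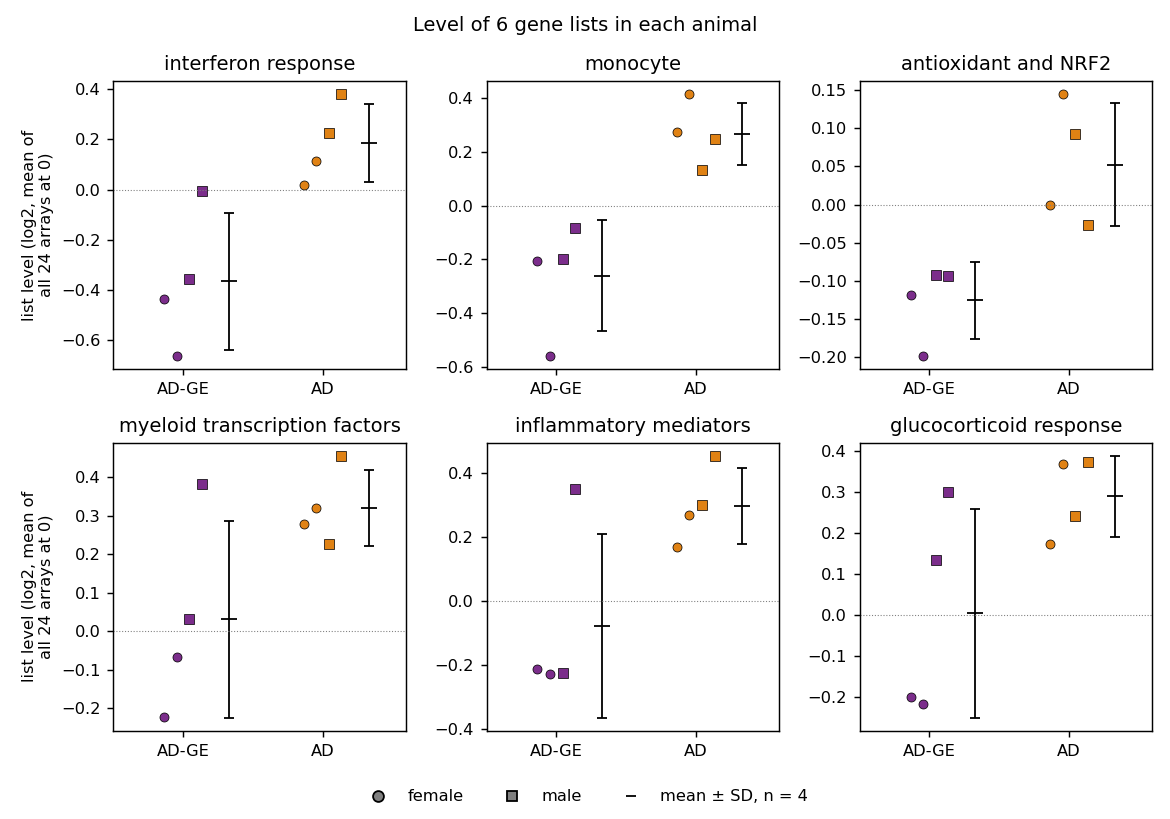
Level of 6 gene lists (log2, mean of the members with the mean of all 24 arrays at 0) in each AD-GE animal (left) and AD animal (right), with circles for females, squares for males and bars for the mean ± SD (n = 4). The interferon, monocyte and antioxidant lists do not overlap between the groups, whereas in the other 3 lists the male AD-GE 4 lies within the AD range.

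Of 23 inflammatory mediators 19 stood lower, at a median of −0.18. At an unadjusted limma p under 0.05, 4 were lower and 0 higher, beside 4.72% and 1.81% of all genes. All members overlapped, where 4.21% of all genes were lower and 1.38% higher without overlap. The list level was −0.21, −0.23 and −0.23 in AD-GE animals 1 to 3 and 0.35 in AD-GE 4, against 0.17 to 0.45 in AD. AD-GE 4 thus lay among the AD animals, and without it the median of the list was −0.35. IL18, a cytokine that calls out interferon gamma, stood at 7.07, 7.09, 7.47 and 8.39 in AD-GE, against 10.01, 9.14, 7.84 and 8.91 in AD, a difference of −2.50 in females and −0.44 in males. CASP1, the protease that matures IL18, stood at 9.19, 9.04, 9.96 and 10.23 in AD-GE, against 9.88, 10.86, 10.83 and 10.42 in AD. CXCL8, the neutrophil chemokine, varied over several log2 units within each group, at 4.75, 5.39, 5.94 and 8.62 in AD-GE, against 6.16, 6.94, 8.99 and 8.76 in AD, so its −1.54 had an SE of 0.91. The porcine chemokine AMCF-II differed by −0.43 (SE 0.13) and PTGS2, the inducible cyclooxygenase, by −0.90. The master cytokines TNF and IL1B differed by −0.18 and −0.25, and IL10, which dampens inflammation, by −0.68, all with overlap. Single animals decided the first pair: without AD-GE 3 TNF was at 0.0087 and IL1B at −0.022, and without AD-GE 4 they were at −0.35 and −0.50. With the monocyte level as a covariate the median of the list was 0.030.

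Of 10 myeloid transcription factors 8 stood lower (median −0.35). Next to CEBPD the lowest was SPI1, the PU.1 factor of myeloid identity, at 7.58, 7.66, 7.64 and 8.19 in AD-GE, against 8.80, 8.04, 8.33 and 8.55 in AD. Only AD-GE 4 reached the AD range. CEBPB, KLF4 and ATF3 differed by −0.34, −0.42 and −0.41, all with overlap, and without AD-GE 1 KLF4 and ATF3 differed by −0.25 each. With the monocyte level as a covariate the median of these factors was 0.13 and CEBPD stood at −0.51.

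Antioxidant genes and targets of NRF2, the factor that senses oxidants, stood lower in 23 of 33 cases. Their median was −0.17, or −0.11 without AD-GE 2. SOD2 and 5 more were lower without overlap, beside 4.21% of all genes, and 0 were higher, beside 1.38%. SOD2 was already among the 12 lower genes chosen for not overlapping. HMOX1, the inducible haem oxygenase, stood at 8.56, 7.69, 8.27 and 8.13 in AD-GE, against 8.62, 9.05, 8.61 and 9.08 in AD. The margin was only that between AD-GE 1 and AD 3. GLRX, a glutaredoxin, stood at 9.44, 9.32, 9.43 and 9.49 in AD-GE, against 9.97, 10.20, 10.13 and 9.83 in AD, without overlap (−0.61, SE 0.23). Its second probe set was lower by 0.81. A pair of enzymes of the pentose phosphate pathway, which supplies NADPH, was lower too, with PGD at −0.57 and TKT at −0.36, and the peroxiredoxin PRDX1 at −0.20. GSR, which recycles glutathione, differed by −0.30 with overlap. SOD1, the cytosolic dismutase, stood at 11.66 ± 0.11 in AD-GE and 11.51 ± 0.13 in AD (SD, n = 4 each), a difference opposite to that of SOD2. With the monocyte level as a covariate the median of the list was −0.089, HMOX1 was at −0.12 and GLRX at −0.18.

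Glucocorticoid-responsive genes, which cortisol switches on through its receptor, stood lower in 13 of 14 cases (median −0.26). All of them overlapped, where 4.21% of all genes were lower without overlap. At an unadjusted limma p under 0.05, 4 were lower and 0 higher, beside 4.72% and 1.81% of all genes. SGK1, a kinase of salt transport and cell survival, stood at 10.71, 11.27, 11.58 and 11.88 in AD-GE, against 11.70, 11.83, 12.01 and 11.93 in AD, a difference of −0.51 that was −0.33 without AD-GE 1. ANXA1, an inhibitor of inflammation, differed by −0.61 and CD163, the scavenger receptor for haemoglobin, by −0.67. FKBP5, which tempers the receptor, differed by −0.53 on its bright probe set with overlap, and on the dim one it stood at 5.00, 4.85, 4.98 and 5.12 in AD-GE, against 5.83, 5.98, 5.59 and 5.55 in AD. The median of the list was −0.45 in females and −0.12 in males, and −0.093 in all with the monocyte level as a covariate. DUSP1, a phosphatase that ends MAP kinase signals, stood at 11.28 and 11.52 in AD-GE females, against 12.18 and 12.49 in AD females, and at 12.08 and 12.49 in AD-GE males, against 12.21 and 11.86 in AD males.

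Genes of cholesterol efflux and lipid storage stood lower in 11 of 15 cases (median −0.23). Without overlap 1 member was higher, ABCA1, and 1 lower, LPCAT3, beside 1.38% and 4.21% of all genes. ABCA1 was already among the 12 higher genes chosen for not overlapping. The median of the list was −0.086 without AD 2 and −0.11 without AD 3, and 0.027 with the monocyte level as a covariate. NR1H3, the sterol receptor LXR alpha that drives ABCA1, differed by −0.39 (0.027 with the monocyte covariate), and NPC1, which exports cholesterol from lysosomes, by −0.34. LPCAT3, a phospholipid-remodelling enzyme and another LXR target, stood at 7.14, 6.80, 6.97 and 7.05 in AD-GE, against 7.24, 7.24, 7.30 and 7.26 in AD. The AD animals were nearly identical and the AD-GE animals all below them (−0.27). Of 14 genes of sterol synthesis and uptake 12 were lower, at a median of −0.15. At an unadjusted limma p under 0.05, 0 were lower and 0 higher, beside 4.72% and 1.81% of all genes. For so few genes that count is near the share. HMGCS1, an early enzyme of cholesterol synthesis, differed by −0.54 and INSIG1, which retains the sterol regulator SREBP in the endoplasmic reticulum, by −0.53.

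Of 27 genes of fatty acid metabolism 18 stood lower, at a median of −0.07 (−0.0048 without AD 3). The 3 genes without overlap were ACSL1, ACSL4 and HADHA, all lower, beside 4.21% of all genes. ACSL1 and ACSL4 were already among the 12 lower genes chosen for not overlapping. HADHA, a subunit of the trifunctional protein of beta oxidation, stood at 8.13, 8.08, 8.27 and 8.18 in AD-GE, against 8.37, 8.32, 8.41 and 8.44 in AD. The activating and transporting proteins were lower in 8 of 10, at a median of −0.22, the oxidation enzymes in 8 of 12, at −0.03. CPT1A, the gate of mitochondrial fatty acid entry, differed by −0.24 (−0.16 without AD-GE 2 and −0.12 without AD 3), and PPARD, a fatty acid-sensing receptor, by 0.09.

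Among stress and housekeeping lists the heat shock genes were lower in 20 of 30 at a median of −0.06, with DNAJA4 and its relative DNAJA3 (0.35) on the higher side. HSPA8, the constitutive HSP70, differed by −0.26. HSPA2, a testis-rich HSP70, stood at 5.57 and 5.81 in AD-GE females, against 7.13 and 7.04 in AD females, and at 6.10 and 5.88 in AD-GE males, against 6.34 and 5.54 in AD males. The female animals alone were apart. Apoptosis genes were lower in 9 of 13 at −0.15, a median of −0.062 without AD-GE 1 and −0.24 without AD 4. CYCS, the cytochrome c whose release starts the caspases, differed by −0.47 and BID, a trigger of that release, by −0.32, both without overlap. Proteasome subunits were lower in 26 of 33, but by only 0.04 at the median, and PSMA4 differed by −0.30 without overlap (−0.19 without AD-GE 1). Translation factors (18 of 33 lower) and ribosomal proteins (23 of 58 lower, 35 higher) had medians of −0.0038 and 0.02, and MHC class I genes −0.04.

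Females and males were compared in a model of 12 diet and sex groups. limma called 0 probe sets in females (smallest adjusted p 0.0654, and 1473 at an unadjusted p under 0.05), 0 in males (0.289 and 1110) and 0 for the difference between the sexes (0.457 and 867). The interferon list was lower in 33 of 35 genes in females and 29 of 35 in males, with medians of −0.42 and −0.51, and 28 were lower in both. The monocyte list was lower in all 20 genes in females and 17 of 20 in males, with medians of −0.61 and −0.30. TREM1, an amplifier of monocyte activation, was at 5.70 and 5.81 in AD-GE females, against 7.69 and 7.80 in AD females, whereas its males ran the other way, at 6.41 and 7.20 in AD-GE and 6.72 and 6.61 in AD. CEBPD differed by −1.04 in females (limma, adjusted p 0.0654) and by −0.55 in males. MHC class II genes had a median of −0.43 in females and 0.13 in males, and myeloid transcription factors −0.62 and −0.04. None of these differences between the sexes passed the test of the difference itself.

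**Figure D4:**
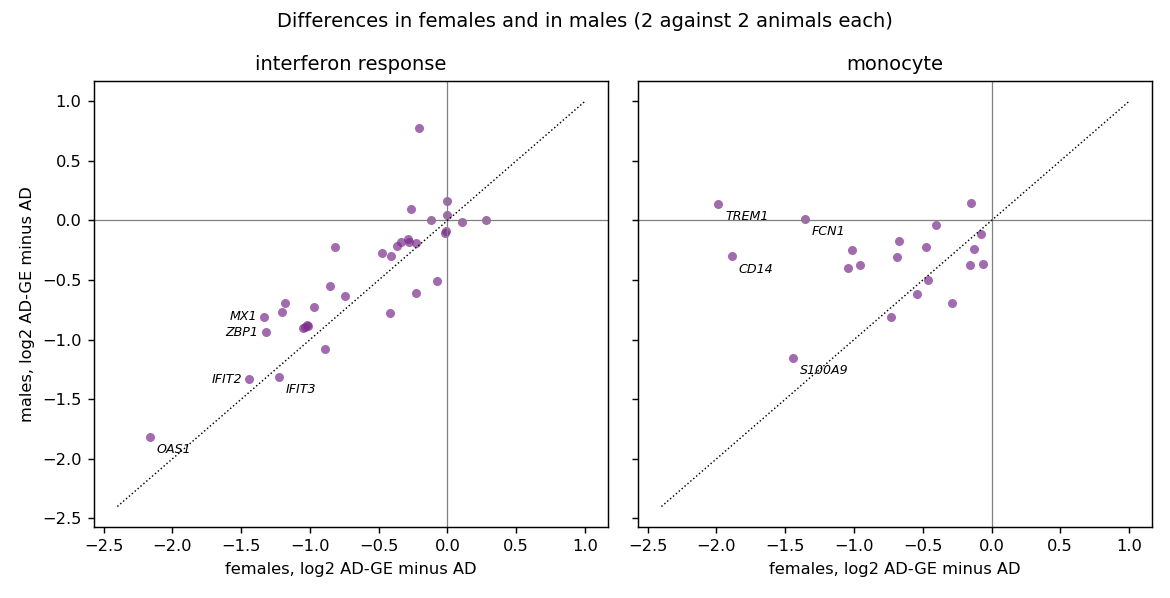
Log2 difference (AD-GE minus AD) in females (horizontal) and in males (vertical), 2 against 2 animals each, 1 point a gene, for the interferon list (left) and the monocyte list (right), with a dotted line where both are equal. Most interferon genes lie near that line, down to OAS1 at −2.16 in females and −1.82 in males, while TREM1, FCN1 and CD14 lie far out in females (−1.99, −1.36 and −1.89) and near 0 in males (0.14, 0.02 and −0.30).

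The level in AD-GE was also set against groups other than AD. Against AD-RES limma called 0 probe sets (0%, smallest adjusted p 0.656), with 553 higher (3.07%) and 436 lower (2.42%) at an unadjusted p under 0.05. Against AD-GE-RES it was again 0 (0.327), with 641 higher (3.56%) and 504 lower (2.8%), and against the mean of both 0 (0.732), with 569 higher (3.16%) and 489 lower (2.72%). SOD2 differed from AD-RES by −0.28 and from AD-GE-RES by −0.59, and ABCA1 by 0.78 and 0.37. The interferon list had medians of −0.23 against AD-RES and −0.24 against AD-GE-RES, and the monocyte list −0.07 and −0.23.

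Against standard chow limma called 9 probe sets, 4 higher (0.0222%) and 5 lower (0.0278%) in AD-GE, of which 3 have a gene name. At an unadjusted p under 0.05 there were 1212 higher (6.73%) and 1423 lower (7.91%). CHMP5 was lower than in CT by 0.83, as were SLC45A3 (−0.78), a sugar transporter family member, and FKBP15 (−0.75), each at an adjusted p of 0.0451. With the 3'/5' ratio as a covariate the count was 0. The median of the interferon list against CT was −0.48, of the monocyte list −0.41 and of the neutrophil list −0.86. In the level of the neutrophil list CT 4 stood at 1.74, and the other CT animals between −0.017 and 0.10. CT 4 also had a 3'/5' ratio of 4.39. The comparison against CT was not repeated without this animal. CEBPD stood below CT by 0.80 and SOD2 by 0.62, whereas ABCA1 stood above CT by 0.42 and FKBP5, on its dim probe set, by 0.12. The glucocorticoid list likewise stood near the chow level, with a median of −0.04 and list levels of 0.0045 ± 0.25 in AD-GE, 0.29 ± 0.10 in AD and −0.04 ± 0.18 in CT (SD, n = 4 each). The interferon level was −0.37 ± 0.27 in AD-GE, 0.19 ± 0.15 in AD and 0.22 ± 0.47 in CT. The chow animals thus varied more than AD-GE or AD, though not more than AD-RES (0.03 ± 0.50). These comparisons share the AD-GE animals with the one against AD, by which the named genes were chosen, so the side on which those genes stood adds no support.

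**Figure D5:**
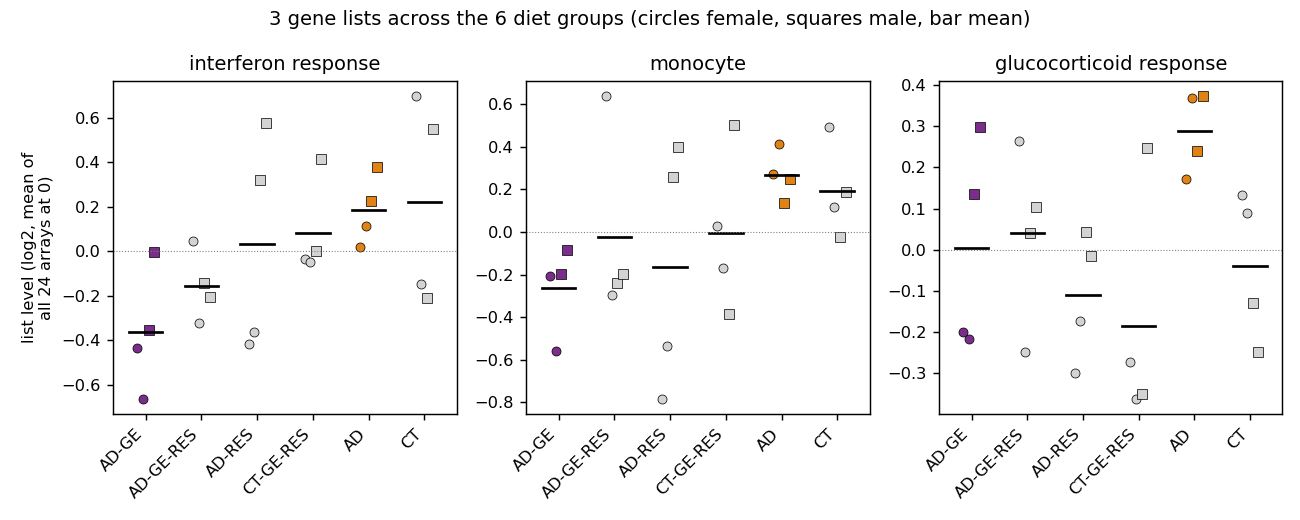
Level of 3 gene lists (log2, mean of all 24 arrays at 0) in all 6 diet groups, 4 animals each, with circles for females, squares for males and a bar for the mean. AD-GE has the lowest mean of the 6 for the interferon list (−0.37) and the monocyte list (−0.26), and for the glucocorticoid list AD stands highest (0.29).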

How the data were processed

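Expression was measured on Affymetrix porcine arrays in blood mononuclear cells of 24 pigs, 4 in each of 6 groups. The deposited values are normalized intensity values on a linear scale, 1 per probe set and array, and the authors' processing used RMA and GCOS per the submitters' processing notes, with versions not given in the sources used here. They were turned into log2 values without further scaling. Of 24123 probe sets, 124 controls and the 25% with the lowest mean log2 level (limit 3.57) were removed before testing 17999. The platform annotation gave the gene names: 8540 probe sets had 1 symbol, 168 several and 9291 none. A gene of a list was read from its brightest probe set. Genome positions were not used here.

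In limma 3.58.1 under R 4.3.3 (lmFit, eBayes), a linear model took the 24 arrays together, with a mean per diet group (6) and a term for sex (17 residual degrees of freedom), two-sided, with Benjamini-Hochberg adjustment over all probe sets tested and a threshold of 0.05. Sexes were compared in a model of sex by diet. The steps were tested on simulated data. Named genes were the 12 per direction with the smallest p among probe sets with 1 symbol, a difference of at least 0.5 and no overlap between the groups, up to 4 genes per list by p, and a fixed panel and role members. The 25 gene lists and the genes were chosen with earlier results of these data known. Alternatives were the 8 arrays alone, array weights, other filters, averaging a gene's probe sets, each sex, each AD-GE and AD animal left out, and the 3'/5' ratio or the monocyte level as covariates. Leaving out CT 4, the array with the lowest mean correlation with the others, was chosen after seeing the data. The number of arrays limits the precision.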

Additional observations from a re-analysis of the deposited data

Results flagged for a closer look

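In 124 groups of 4 animals the gap between the highest or lowest animal and its nearest neighbour was divided by the range of the group, and a value above Dixon's 95% critical value marked that animal as far from the others. Chance marks about 5% of groups, and 6 of the 124 were marked (4.84%), which is no more than that. The level of the inflammatory mediator list in AD-GE gave 0.977, with AD-GE 4 at 0.35 and the other AD-GE animals between −0.23 and −0.21. APPL2, an endosomal adaptor, gave 0.897 in AD-GE, with AD-GE 4 at 6.23 and the others at 6.09 to 6.11. In AD, SENP6, a SUMO protease, gave 0.942, with AD 1 at 4.87 and the others at 5.26 to 5.28. CHMP5 gave 0.909 in AD, with AD 2 at 8.82 and the others at 8.56 to 8.59. LMNB1 gave 0.865 in AD, with AD 3 at 9.72 and the others at 9.32 to 9.37. DNAJA4 gave 0.848 in AD, with AD 2 at 5.92 and the others at 5.55 to 5.61.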

How the results depend on the processing

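Of 2759 values computed for 132 genes under the alternatives, 2730 kept their direction and 29 reversed. Part of this count was fixed in advance. The 8 arrays alone and other filters leave the difference of a gene unchanged. Genes chosen for not overlapping keep their direction within each sex by construction. The count is therefore given as description only. The count of called probe sets was 1 with array weights. The count of higher probe sets at an unadjusted p under 0.05 was 766 in the 8 arrays alone, 808 with array weights and 323 to 707 with each AD-GE or AD animal left out, and that of lower ones 1038, 920 and 368 to 600. Without CT 4, chosen after seeing the data, they were 548 and 662. AD-GE against CT gave 0 calls with the 3'/5' ratio as a covariate.

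With the monocyte level as a covariate, which by construction removes the monocyte list itself (−0.041), the medians were −0.17 for interferon, 0.13 for myeloid transcription factors, −0.089 for antioxidant, 0.027 for cholesterol efflux and −0.024 for ribosomal genes. In females the medians were −0.62 for myeloid transcription factors, −0.15 for T cell and 0.15 for cytotoxic genes. In males they were −0.037 for myeloid transcription factors, −0.070 for cholesterol efflux, 0.13 for MHC class II and −0.30 for monocyte genes. Cholesterol efflux stood at −0.085 with array weights and −0.11 with the mean of all probe sets, and apoptosis at −0.050 with array weights. With each AD-GE or AD animal left out, cholesterol efflux ran from −0.25 to −0.086, fatty acid metabolism from −0.12 to −0.0048, apoptosis from −0.24 to −0.062 and T cell genes from −0.044 to 0.24.

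The monocyte covariate reversed TNF (0.28), SOD1 (−0.064), IL10 (0.012), FCN1 (0.29), NR1H3 (0.027), ATF3 (0.025), S100A8 (0.12), IL1B (0.59), CCR1 (0.052), TREM1 (0.044), DEFB1 (0.061), SAMHD1 (−0.17), PPARD (−0.0031), NFKBIA (0.25), CD163 (0.12), VCAN (0.18), S100A12 (0.30), CEBPB (0.12) and KLF4 (0.040). Of these, FCN1, S100A8, CCR1, TREM1, CD163, VCAN and S100A12 belong to the monocyte list that makes the covariate. Their values therefore scatter around 0 by construction. Within males FCN1 (0.016), TREM1 (0.14), PPARD (−0.11), DUSP1 (0.25), HSPA2 (0.050), DNAJA1 (0.012) and GLUL (0.018) reversed, and within females TNFSF10 (−0.21). With each AD-GE or AD animal left out TNF ran from −0.35 to 0.0087 and PPARD from −0.0092 to 0.20. The cause was not tested. No paired analysis was possible because the replicate numbers only name the animals, and the sexes they stand for are already in the model.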
